A study of Caenorhabditis elegans with 2 samples.

Results

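The genes described here are 5 genes of the Caenorhabditis elegans unfolded protein response, ire-1, pek-1, atf-6, xbp-1 and atf-4, examined for recovery with the tagged CCAAT-binding factor subunit NFYA-2. They were listed by name for their role, with earlier results of these data known. For each gene, the regions considered were those whose summit lay inside the gene or within 1000 bp before its start. This rule gave 22 of the 71547 regions that the authors ranked by agreement between the replicates, at 5 of 19973 protein-coding nuclear genes. The chromatin came from whole young adults of strain RW12238, aged 64 hours and synchronised as starved L1 larvae after bleaching. Its allele st12238 is a CRISPR insertion of TY1, EGFP and 3xFLAG tags at nfya-2 on chromosome I, and chromatin sheared to 200 to 800 bp was precipitated with an antibody to GFP. Both libraries are biological replicates of this 1 strain and stage, so no genotype, treatment or time was compared. All tissues of the animal were pooled, so a site used in few cells and a weak site in many cells cannot be told apart. Peak lists hold no expression values, so the stage and tissue could not be checked against markers, and an untagged strain was not analysed here.

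The unfolded protein response adjusts the folding capacity of the endoplasmic reticulum (ER). IRE-1 is a membrane sensor whose nuclease activity removes an intron from xbp-1 messenger RNA, after which that RNA is translated into an active bZIP transcription factor. PEK-1 is a membrane kinase that phosphorylates the translation factor eIF2alpha, ATF-6 is a membrane-tethered bZIP factor released by proteolysis, and ATF-4 is a bZIP factor of the eIF2alpha branch. In mammals, NF-Y binds the CCAAT part of the ER stress element that lies upstream of many ER chaperone genes.

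None of the 22 regions overlapped a peak on any of the 4 thresholded lists, and 0 of the 5 genes therefore carried a reported peak. Among all protein-coding genes, 87.4% had a ranked region under the same rule and 2.04% had one on a thresholded list, while 0.674% of all ranked regions overlapped a thresholded peak. Against that background, nothing particular is read from the absence at 5 genes. The thresholded lists held 281 peaks in the conservative list, 435 in the other list of the whole series, 92 for replicate 1 and 90 for replicate 2. From the edge of each gene's window, the nearest thresholded summit was 15473 bp away at ire-1, 20484 bp at xbp-1, 78928 bp at atf-6, 187496 bp at pek-1 and 264472 bp at atf-4.

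Signals are the peak caller's own values, as the authors deposited them, and each ranked region carries a combined signal and a signal from each replicate. The combined signals of the 22 regions ran from 9.56 to 42.8 with a median of 23.97, beside a median of 22.97 over all ranked regions. Of the 22, 13 were above that overall median. The first replicate signals ran from 8.55 to 18.6 and the second from 3.63 to 26.9. The irreproducible discovery rate (IDR), which is lower where both replicates rank a region consistently high, ran from 0.148 to 0.835. The conservative peaks all had an IDR of at most 0.00999, so the best of the 22 regions was well short of that level. The value 0.835 is the highest in the ranked list, and 9 of the 22 regions and 45.1% of all ranked regions had it.

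**Figure D1:**
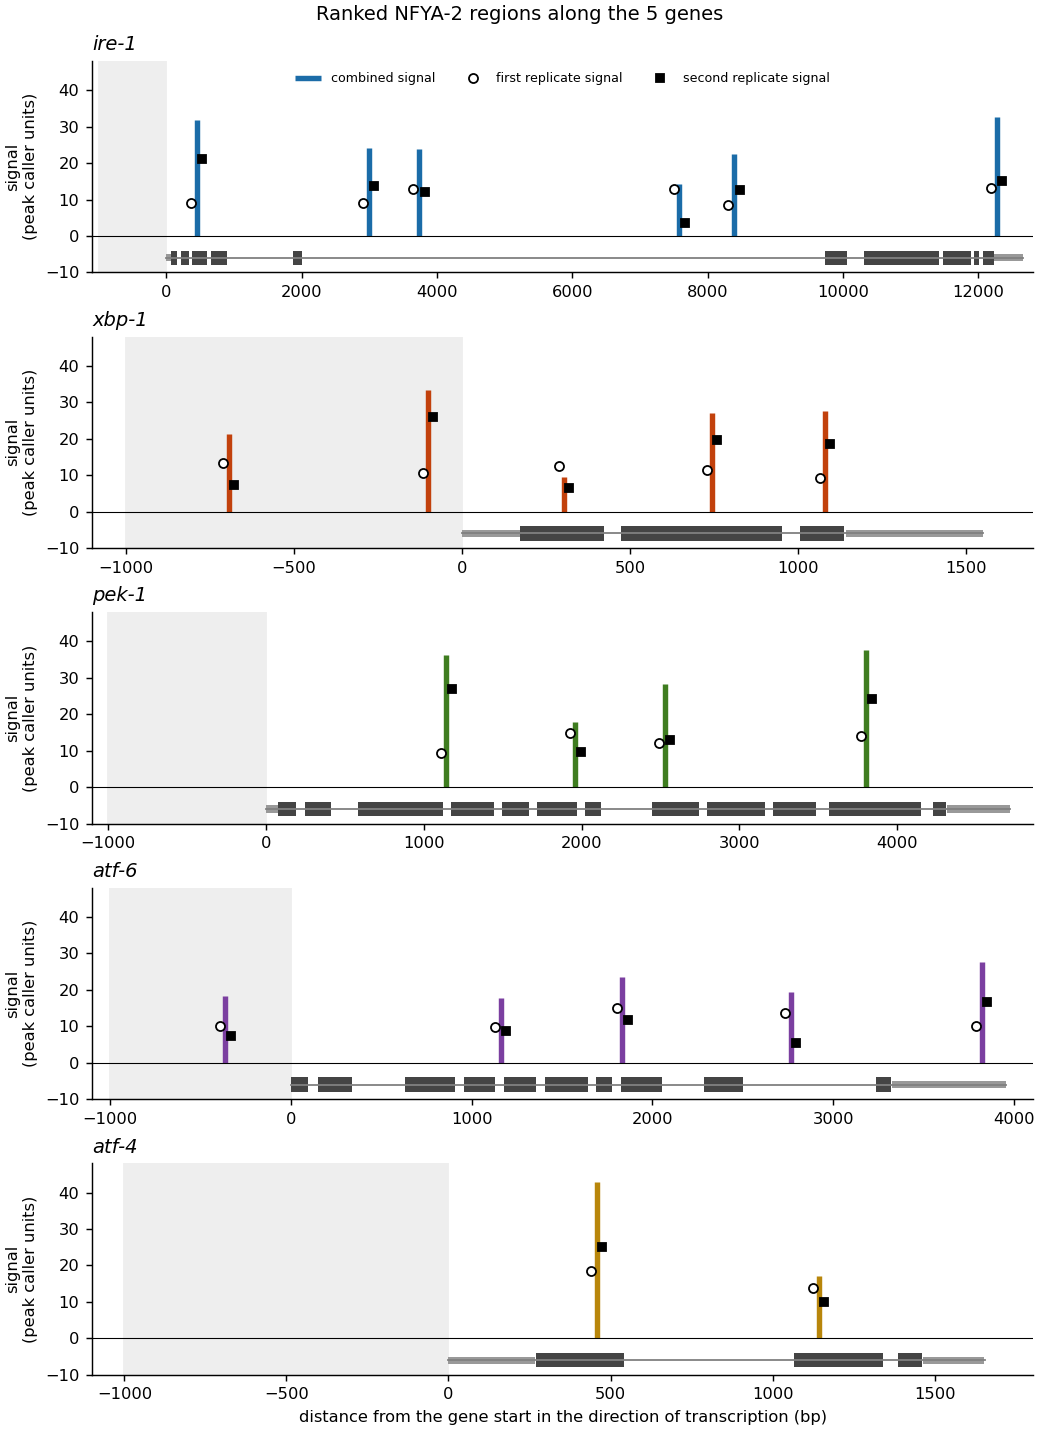
Each panel is 1 gene, with the distance from its start on the horizontal axis (bp, in the direction of transcription) and the signal of each ranked region on the vertical axis (peak caller units). Bars are combined signals, open circles first and filled squares second replicate signals, the shaded part is the 1000 bp before the start, and the boxes under each panel are coding exons (dark) and untranslated exons (light). Only xbp-1 and atf-6 have a region before the start, and the tallest bar is the atf-4 region at 457 bp, at 42.8.

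ire-1 (WBGene00002147) occupies chromosome II from 8112243 to 8124910 on the minus strand (WBcel235) and had 6 regions, none of them before its start. Its strongest region lay in the 3′ UTR, from 8112512 to 8112751, and its combined signal was 32.7, with 13.2 in the first and 14.97 in the second replicate. Both replicate signals were above their overall medians of 12.3 and 11.98, and 16.9% of all ranked regions had a higher combined signal. The summit, 12278 bp after the start, was nearer to the start of the downstream gene lron-4, at 469 bp. A CCAAT box had its centre 1 bp from this summit, in the sense orientation and without the extended consensus. The stretch chrII:8112618-8112646 is printed on the ire-1 strand, with the box in capitals, because it is the box nearest to any summit of these genes.
ire-1 3′ UTR: gttggatttaaCCAATaattattatatac

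The next ire-1 region lay in a coding exon 447 bp after the start, with a combined signal of 31.9. Its replicate signals were 9.05 and 21.0, so it stood high in the second replicate alone, with 11.3% of regions above it there and 90.02% above it in the first. The first and second replicate summits lay 59 and 8 bp from the combined summit, on opposite sides, so the paired values may not come from the same position. The other 4 regions fell in a long ire-1 intron that holds nearly all of unc-105, a degenerin channel gene on the opposite strand, and their combined signals ran from 14.2 to 24.0. One of these summits, with a combined signal of 22.4, lay 59 bp from the unc-105 start and 8392 bp from that of ire-1. These regions cannot be assigned to ire-1 rather than to unc-105 by position.

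pek-1 (WBGene00003970) lies on chromosome X from 11410176 to 11414887 on the minus strand and had 4 regions, again with none before the start. The strongest was in a coding exon 3803 bp after the start, from 11410964 to 11411203, and its combined signal was 37.6, with 14.0 in the first and 24.1 in the second replicate. Its IDR was 0.397 and 8.50% of ranked regions had a higher combined signal. The start of the gene F08B12.4, at 3352 bp, was nearer to this summit than that of pek-1. This region was the only one of the 22 with more than 2 CCAAT boxes within 100 bp of the summit, holding 4. All 4 were antisense to pek-1, with centres 65 and 52 bp before and 60 and 74 bp after the summit, and none was in the extended consensus. The sequence is printed on the pek-1 strand, chrX:11411004-11411164, to show this arrangement, and the capitals mark the boxes, which read ATTGG on this strand.
pek-1 coding exon: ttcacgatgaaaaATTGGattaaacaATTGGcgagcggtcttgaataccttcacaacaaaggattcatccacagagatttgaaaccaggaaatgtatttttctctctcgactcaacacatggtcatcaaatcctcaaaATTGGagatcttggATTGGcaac

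A pek-1 intron region 1143 bp after the start had a combined signal of 36.2 and no CCAAT box. Its first replicate signal was 9.34 and its second 26.9, the highest second signal of the 22, and 2.88 times the first. The replicate summits were 0 and 124 bp from the combined summit, so the values that the list pairs here do not come from the same position. The remaining coding exon regions, at 1960 and 2526 bp, had combined signals of 17.99 and 28.4, with 71.3% and 28.6% of ranked regions above.

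atf-6 (WBGene00000222) lies on chromosome X from 12480948 to 12484904 on the plus strand and had 5 regions, with the lowest strongest signal of the 5 genes. Before its start, 362 bp upstream, a region from 12480466 to 12480705 had a combined signal of 18.4, with 10.1 in the first and 7.39 in the second replicate. Both replicate signals were below the overall medians, and the replicate summits lay 2 and 1 bp from the combined summit. This window was the richest in G and C of the 22, at 57.7%, and had no CCAAT box. The strongest atf-6 region was in the 3′ UTR, 3822 bp after the start and 279 bp from the start of tbc-13, a gene for a TBC-domain protein. Its combined signal was 27.7, its replicate signals were 9.998 and 16.5, and 31.1% of ranked regions were above it.

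All 4 atf-6 regions inside the gene had 1 CCAAT box within 100 bp of the summit. That of the intron region at 2764 bp fell in the extended consensus, which is CCAAT preceded by 2 purines and followed by C or G and a purine. Its centre was 44 bp before the summit, antisense to atf-6. The region itself was weak in the second replicate, with signals of 13.6 and 5.35 and a combined signal of 19.4. The sequence chrX:12483632-12483792 is printed on the plus strand with the box in capitals, as 1 of the 2 extended sites found.
atf-6 intron: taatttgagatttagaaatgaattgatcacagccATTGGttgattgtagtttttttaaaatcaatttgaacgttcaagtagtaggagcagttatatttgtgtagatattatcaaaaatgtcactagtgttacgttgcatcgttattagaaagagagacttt

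xbp-1 (WBGene00006959) lies on chromosome III from 4193809 to 4195358 on the plus strand and, within the 1000 bp considered, is the only one of the 5 genes with its strongest region before the start. This region ran from 4193589 to 4193828 with its summit 100 bp upstream, and had a combined signal of 33.2. The first replicate signal was 10.5 and the second 25.9, a ratio of 2.48. In the second replicate 4.10% of ranked regions were above it, and in the first 71.2% were. The replicate summits lay 25 and 2 bp from the combined summit, so both values refer to the same place and differ in height. The IDR was 0.677, and the region had no counterpart in the list of replicate 1 alone.

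There was no CCAAT box within 100 bp of any of the 5 xbp-1 summits, nor in the 1000 bp before the gene. Among protein-coding genes, 12.2% had none in that stretch. The whole xbp-1 window of 2.55 kb held 1 box, 0.392 per kb beside a median of 2.39 over protein-coding gene windows, and 0.816% of those windows held fewer per kb. The sequence around the upstream summit, chrIII:4193629-4193789 on the plus strand, is printed because it is the strongest upstream region of the 5 genes. It has no capitals because no CCAAT or ATTGG is present. It contains TGACGTCA, a word known for binding bZIP factors of the ATF and CREB type, at 4193736 to 4193743, centred 30.5 bp from the summit. This word was searched after the sequence was seen. Within 100 bp of the summit, 1.29% of all ranked regions held that word, which is its own reverse complement.
xbp-1 upstream: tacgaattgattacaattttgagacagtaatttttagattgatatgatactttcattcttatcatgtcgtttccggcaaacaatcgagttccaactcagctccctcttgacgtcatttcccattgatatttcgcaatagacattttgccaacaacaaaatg

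The other xbp-1 regions comprised 3 in coding exons, 304, 743 and 1080 bp after the start, and 1 at 694 bp before it, inside a coding exon of dnj-16, a DnaJ-domain protein gene. Their combined signals were 9.56, 27.1, 27.6 and 21.3 in that order. The regions at 743 and 1080 bp were both higher in the second replicate, by 1.73 and 2.02 times, while those at 304 and -694 bp were higher in the first, by 1.92 and 1.83 times. At 304 bp, however, the second replicate summit was 126 bp from the combined summit, so the paired values come from different positions. At 1080 bp the second replicate summit was 63 bp away. With 5 regions in 2.55 kb, xbp-1 had 1.96 per kb, and 1.29% of protein-coding genes had more per kb. The median over protein-coding genes was 0.730, and the other 4 genes had 0.439 at ire-1, 0.7003 at pek-1, 1.01 at atf-6 and 0.753 at atf-4. The xbp-1 density counts the regions at 304, 1080 and -694 bp, whose IDR of 0.835 is the highest in the ranked list.

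atf-4 (WBGene00000221) lies on chromosome X from 14809156 to 14810810 on the minus strand and held the strongest region of all 22. It ran from 14810233 to 14810472 in a coding exon, with its summit 457 bp after the start. The combined signal was 42.8 and the replicate signals were 18.6 and 25.1. It was high in both replicates, with 11.5% of ranked regions above it in the first and 4.80% in the second, and its combined signal ranked 2927 of 71547. Its IDR of 0.148 was the lowest of the 22 regions. Both replicate signals were nevertheless below the lowest among the conservative peaks, which were 23.3 and 26.9. Only 6 of the 281 conservative peaks had a combined signal at or below 42.8.

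This atf-4 region held 1 CCAAT box, in the extended consensus, with its centre 60 bp after the summit and in the sense orientation. The second replicate summit was 46 bp from the combined summit, on the side of the box, and the first was 7 bp away on the other side. The sequence on the atf-4 strand, chrX:14810273-14810433, is printed with the box in capitals, since it is the only extended site under a region high in both replicates.
atf-4 coding exon: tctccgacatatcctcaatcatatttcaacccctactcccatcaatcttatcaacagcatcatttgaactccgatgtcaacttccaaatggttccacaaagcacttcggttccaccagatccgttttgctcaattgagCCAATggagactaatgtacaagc

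A weaker atf-4 region 1142 bp after the start had a combined signal of 17.04 and, in the replicates, signals of 13.8 and 10.1. It had a CCAAT box with its centre 5 bp from the combined summit, but the second replicate summit was 210 bp away. No atf-4 region lay before the start, although the upstream stretch held boxes centred 67 and 518 bp before it. A short protein-coding gene annotated inside atf-4, WBGene00303075, starts 451 bp from the stronger summit, 6 bp nearer than atf-4 itself.

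The order of the genes by strongest combined signal was atf-4 at 42.8, pek-1 at 37.6, xbp-1 at 33.2, ire-1 at 32.7 and atf-6 at 27.7. With 1 value per replicate there is no test of this order. With 2000 bp before the start, a region 1830 bp upstream became the strongest of ire-1, at 36.5, which placed ire-1 above xbp-1. Between neighbours, the atf-4 region was above the pek-1 region in both replicates, although another pek-1 region, at 1143 bp, had a second signal of 26.9 against 25.1 at atf-4. The remaining neighbouring pairs, pek-1 with xbp-1, xbp-1 with ire-1 and ire-1 with atf-6, changed places between the replicates, so they did not differ beyond the replicate spread. Among protein-coding genes with a region, 12.8% had a stronger one than atf-4, 25.1% than pek-1, 40.5% than xbp-1, 43.0% than ire-1 and 64.1% than atf-6. The windows differed in length and ran from 2.55 kb at xbp-1 to 13.7 kb at ire-1, with a median of 3.03 kb over protein-coding genes.

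**Figure D2:**
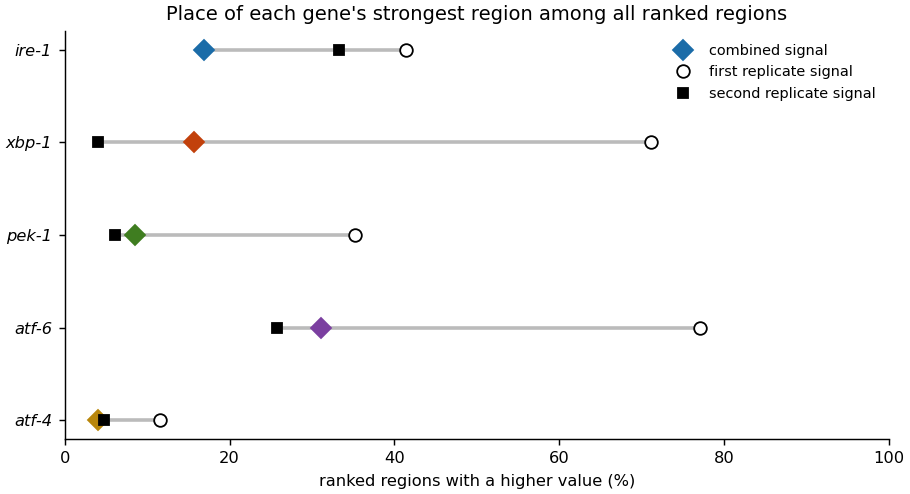
For each gene's strongest region by combined signal, the horizontal axis gives the percent of all 71547 ranked regions with a higher value, so points to the left are stronger. Diamonds use the combined signal, open circles the first and filled squares the second replicate signal. The atf-4 points sit together between 4.09% and 11.5%, whereas the xbp-1 points spread from 4.10% to 71.2%.

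The 2 replicate signals differed by 1.5 times or more at 13 of the 22 regions and at 46.9% of all ranked regions, and the median difference was 1.59-fold beside 1.46-fold. Both replicate signals were above their medians at 3 of the 22 regions, the strongest ones of atf-4, pek-1 and ire-1, and at 28.1% of all ranked regions. Both replicate summits lay within 50 bp of the combined summit at 12 of the 22, and at 44.6% of all ranked regions. The second signal was the higher one at 12 of the 22 regions and at 44.2% of all ranked regions. None of these shares was tested against the whole list. The depth of the libraries is not in the files, so the replicate differences cannot be set against counting error.

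Each replicate also had a ranked list of its own. Of the 22 regions, 14 overlapped a region in the replicate 1 list and 12 in the replicate 2 list, with 7 in both and 3 in neither. In the replicate 1 list, the strongest region per gene was 18.6 at atf-4, 14.9 at pek-1, 14.9 at atf-6, 13.9 at ire-1 and 13.3 at xbp-1. In the replicate 2 list it was 26.9 at pek-1, 25.9 at xbp-1, 25.1 at atf-4, 21.0 at ire-1 and 20.1 at atf-6. The atf-4 region near 457 bp was the strongest one of its gene in both lists, 450 and 503 bp after the start. For the other 4 genes, the strongest region of the replicate 1 list lay elsewhere than that of the replicate 2 list.

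**Figure D3:**
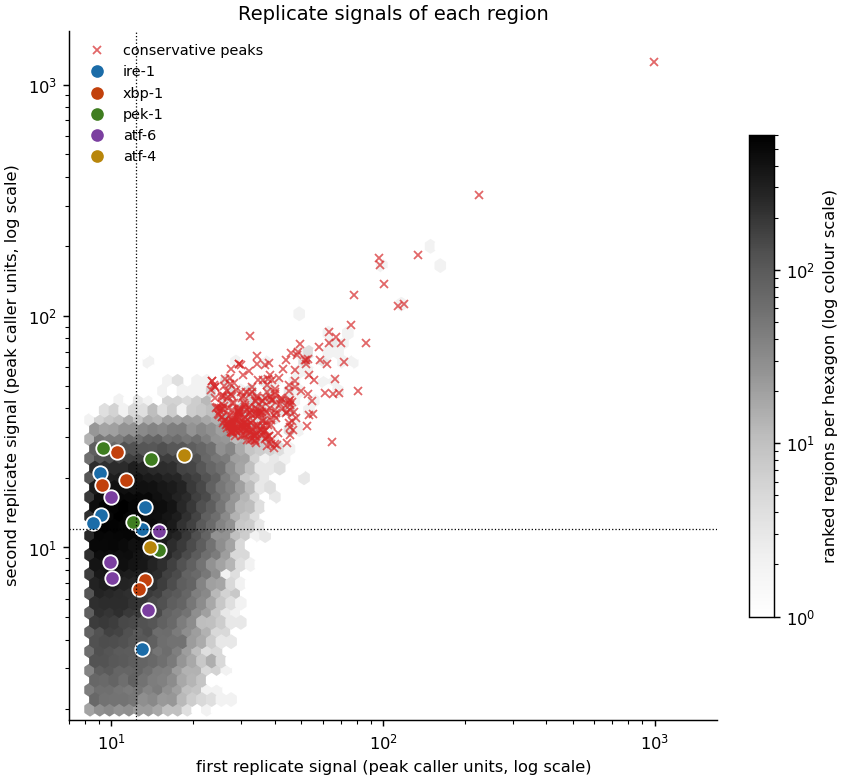
First replicate signal (horizontal axis) against second replicate signal (vertical axis), both in peak caller units on log scales, with all ranked regions as grey hexagons, conservative peaks as red crosses and the 22 regions as coloured points. Dotted lines are the medians of 12.3 and 11.98. All 22 points lie below the conservative peaks on the first replicate axis, which start at 23.3, and the point farthest to the right is the atf-4 region at 18.6.

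By position, 10 of the 22 summits lay in coding exons, 7 in introns, 3 before the gene start and 2 in 3′ UTRs. At 5 of them the summit also lay inside another gene, 4 in unc-105 and 1 in dnj-16. Shares over all ranked regions were not computed for these positions. Each of the 5 genes is longer than the 1000 bp before its start, so more of each window is gene body. Within 1000 bp before to 200 bp after the start, xbp-1 had 2 regions and atf-6 had 1, and the other 3 genes had none. In that window, 22.2% of protein-coding genes with a region had a stronger one than xbp-1 and 80.2% had a stronger one than atf-6.

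A CCAAT box was present within 100 bp of the summit, on either strand, at 9 of the 22 regions. This share of 40.9% (95% Wilson interval 23.3 to 61.3%, counting error only) was close to the 37.8% of all ranked regions. The extended form occurred at 2 of the 22 (9.09%, 2.53 to 27.8%) and at 2.64% of all ranked regions. Both intervals treat the 22 regions as independent draws although they come from only 5 genes, so they do not measure the spread between genes. The 9 regions comprised 4 of atf-6, 2 each of ire-1 and atf-4, and 1 of pek-1, and the nearest box was 1 to 83 bp from the summit with a median of 44 bp. In the 1000 bp before the start there were boxes at 4 of the 5 genes, centred 544 bp upstream at ire-1, 740 bp at pek-1, 218 and 837 bp at atf-6, and 67 and 518 bp at atf-4. None of them lay in the extended consensus, and none was within 100 bp of a summit of the main ranked list. In the ranked list of replicate 2 alone, the strongest atf-6 region, at 20.1, had its summit at -862 bp, near the box centred 837 bp upstream.

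The mammalian ER stress element was searched as CCAAT followed after 9 bases by CCACG, on both strands. It was absent from the 1000 bp before all 5 genes and present before 0.0851% of protein-coding genes. TGACGTG, the core word of sites bound by mammalian XBP1 and ATF6, was likewise absent before the 5 genes and present before 7.64% of protein-coding genes. These results say only that the letters are not in this window.

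Genes that the response acts on, or works with, were examined by the same rule, from lists drawn up with earlier results of these data known. Of 6 signalling partners, 0 had a region on a thresholded list, and their strongest regions had a median signal of 34.8. These comprise gcn-2, an eIF2alpha kinase, at 40.5, gcn-1, its activator, at 38.9, eif-2alpha at 38.7, hpl-2, a heterochromatin protein, at 30.9, rtcb-1, the ligase that joins xbp-1 exons, at 19.1, and dnj-7, a DnaJ-domain protein gene, at 14.3. Of 32 output genes matched, 7 (21.9%) had a thresholded region, as against the 2.04% of protein-coding genes. Their strongest signals were 276.2 at hsp-3, 257.3 at crt-1, the calreticulin gene, 113.5 at cdc-48.1, whose product extracts ubiquitinated proteins, 113 and 108 at the disulfide isomerase genes pdi-6 and pdi-3, 63.3 at trap-3, a translocon-associated protein gene, and 44.2 at abu-8. Of 26 other bZIP factor genes, 2 had one, zip-7 at 101.9 and zip-10 at 55.1. No CCAAT box lay within 100 bp of the strongest summit at cdc-48.1, trap-3, abu-8, zip-7 or zip-10. The zip-7 summit lay 1924 bp after the gene start, and the pdi-3 summit 617 bp before the gene start. Whether a neighbouring gene starts nearer to these summits was not examined. The medians of the strongest signals were 33.2 at the 5 genes, 38.7 at the output genes with a region, 35.7 at the other bZIP genes and 31.0 over protein-coding genes with a region. No test was made between these lists.

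The strongest output gene region serves as a scale for the values above. At hsp-3, which encodes an ER Hsp70, the region 55 bp upstream had a combined signal of 276.2, with 96.9 in the first and 178 in the second replicate. Its IDR level was that of a reported peak. The sequence at its summit is printed on the hsp-3 strand, chrX:6092165-6092193, with the box in capitals as ATTGG, for comparison with the regions of the 5 genes. Here the box lay within 14 bp of the summit and was in the extended consensus. Boxes as near to a summit were also present at ire-1, at 1 bp, and at the weaker atf-4 region, at 5 bp, but neither was in the extended consensus.
hsp-3 upstream: acacgcggcgctcgccgATTGGccgaatg

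**Figure D4:**
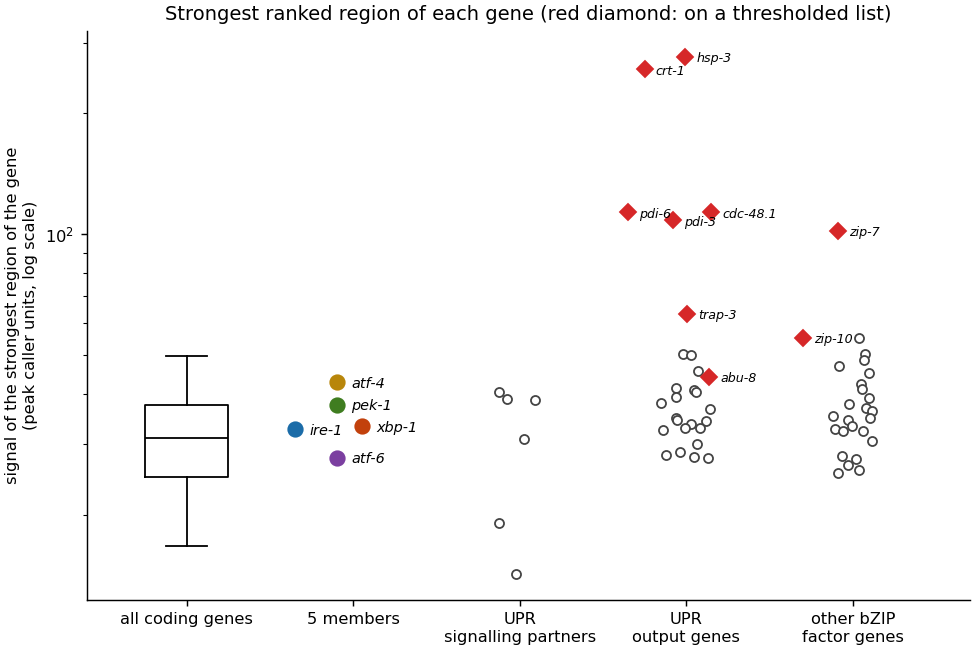
Signal of the strongest ranked region of each gene (peak caller units, log scale) for the 5 genes, the 3 comparison lists and all protein-coding genes with a region, the last as a box of quartiles and median with whiskers at the 5th and 95th percentiles. Coloured circles are the 5 genes, red diamonds are listed genes with a region on a thresholded list and open circles are listed genes without one; horizontal spread within a list has no meaning. The 5 genes span 27.7 to 42.8 and lie below all 9 of the red diamonds, the lowest of which is abu-8 at 44.2.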

How the data were processed

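Anti-GFP chromatin immunoprecipitation and sequencing was done on 2 biological replicates of 1 group. The authors deposited peak lists on assembly ce11, derived from filtered alignments and a control per the text that accompanies the files. The sources used here name no aligner, peak caller or version. The deposited signal is the peak caller's own value per region, and the deposited −log10 of the IDR was turned into a rate. Of the first replicate signals, 61.5% were found with the same interval and value in the list of replicate 1 alone and 0% in that of replicate 2; of the second, 47.0% were in that of replicate 2 and 0% in that of replicate 1.

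Genes came from Ensembl release 115 (WBcel235, the sequence of ce11) and sequence from the RefSeq genome of that assembly, whose chromosomes contain all peak ends. A region belonged to a gene when its summit lay in the gene or up to 1000 bp before its start, and overlap with a thresholded peak needed 1 bp. CCAAT and the other words were looked for in either orientation, up to 100 bp from a summit or 1000 bp before a start. Comparison lists had 6, 33 and 27 names, of which 6, 32 and 26 matched. Named are the 5 genes, list genes with a thresholded region or otherwise the 3 strongest, neighbours whose start is nearer to a summit, and all 6 signalling partners, the last chosen after their values were seen. The genes and lists were chosen with earlier results of these data known. The assignment and search were tested on simulated data. Python 3.11.15, pandas 2.3.3 and numpy 2.4.6 were used. Depth is unknown and no test between groups was possible. Alternatives changed the window, the list, the replicate and the overlap.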

Additional observations from a re-analysis of the deposited data

How the results depend on the processing

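No gene had a region on a thresholded list under any of the 7 alternatives tried for that count. The other ranked list of the series moved the number of regions from 22 to 42 and those with CCAAT from 9 to 16, and CCAAT within 50 bp of the summit was found at 5 regions. The share of 37.8% over all ranked regions is for 100 bp in the main list, so it is no background for these counts. In the ranked lists of replicate 1 and replicate 2 alone, the regions numbered 15 and 21. In the main list, by the signal of 1 replicate at a time, shares above the strongest region were 11.3 to 41.4% at ire-1 and 4.10 to 41.2% at xbp-1. They were 3.30 to 28.5% at pek-1, 25.8 to 28.6% at atf-6 and 4.80 to 11.5% at atf-4. Within each replicate's own list, the shares were 18.4 to 49.2% at ire-1, 6.33 to 55.4% at xbp-1 and 5.01 to 40.4% at pek-1. There they were 22.4 to 40.5% at atf-6 and 7.51 to 17.4% at atf-4. The atf-6 share of 31.1% was 20.1% in the other ranked list and 69.6% around its start only, where ire-1, pek-1 and atf-4 had no region and so no value. In the other ranked list the shares were 10.4% at ire-1, 9.62% at xbp-1, 5.13% at pek-1 and 2.44% at atf-4, for the same regions in a longer list. With 2000 bp before the start, the ire-1 share was 9.85%. The cause of the other moves was not tested. No paired analysis was possible because there is 1 group. Unknown depth limits every replicate comparison, and the replicate shares use the strongest region of each replicate, which need not be the same one.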

Other observations

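Of the 21 output genes with a region but no reported peak, 3 held the extended CCAAT consensus within 100 bp of their strongest summit, as did 4 of the 7 with a reported peak, beside 2.64% of all ranked regions. That 2.64% covers regions of every strength, whereas the counts use only the strongest region of each gene. The 3 were picked after their values were seen, and no share was tested. At pdi-2, a protein disulfide isomerase gene, the strongest region had its summit 16 bp before the start, a combined signal of 49.9, replicate signals of 30.8 and 18.4, and 2 extended sites within 100 bp. At hsp-4, the ER Hsp70 gene widely used as a reporter of xbp-1 activity, the strongest region was 2392 bp after the start with a combined signal of 32.5, replicate signals of 13.7 and 19.6, and 1 extended site. At cup-2, a gene of ER-associated degradation, it was 203 bp after the start with a combined signal of 28.2, replicate signals of 22.2 and 10.1, and 1 extended site.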
